A study of Homo sapiens with 4 samples.

Results

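The genes described are 9 airway ion transport genes other than CFTR: SCNN1A, SCNN1B, SCNN1G, SLC12A2, SLC26A9, ANO1, ATP12A, ATP1B1 and CA12. They were followed through the sites bound by the transcription factor BACH1 in 2 human lines, Calu3 from a lung adenocarcinoma and 16HBE14o- from bronchial epithelium. Each line had 2 chromatin immunoprecipitation sequencing (ChIP-seq) replicates, 4 samples in all, which the authors combined into 1 list of peaks per line. Both lines were grown in DMEM with serum, precipitated with the same rabbit antibody, and given no treatment that the labels name. The members are the bound regions whose summit, the peak's highest point, lay in 8 windows on hg19 from 127 to 299 kb long, with SCNN1G and SCNN1B in 1 window. They numbered 13 of the 10246 Calu3 regions and 6 of the 3393 regions of 16HBE14o-. The lists hold no expression values, so whether either line expresses these genes was not measured here.

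Airway epithelium keeps its surface wet by balancing sodium absorption against chloride and bicarbonate secretion. Sodium enters through the epithelial sodium channel and is pumped out by the sodium-potassium ATPase, while chloride is loaded from the blood side and leaves through apical channels such as CFTR and ANO1. BACH1 is a haem-binding transcription factor that pairs with small MAF proteins on sites of the antioxidant response type and is best known as a repressor of HMOX1. The study asked about BACH1 and CFTR, and the genes here carry the other steps of the same transport.

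BACH1 regions were listed near 6 of the 9 genes. In Calu3, 6 of the 8 windows held at least 1 region, and in 16HBE14o- 2 of the 8 did, those of SCNN1A and ANO1. For comparison, among consecutive windows of 175 kb along the chromosomes, the mean length of the 8, 36.0% held a Calu3 region and 14.1% a region of 16HBE14o-. The windows of SCNN1A and ANO1 together held 8 of the 13 Calu3 regions and all 6 regions of 16HBE14o-. No region of either list lay in the window of SCNN1G and SCNN1B or in that of SLC12A2. The 8 windows span 1.40 Mb and carried 9.29 Calu3 regions per Mb, against 3.50 over the whole Calu3 list, and 4.29 regions of 16HBE14o- per Mb, against 1.16 over its whole list. Without the SCNN1A and ANO1 windows, left out after the values were seen, 4.73 Calu3 regions per Mb remained and none of 16HBE14o-. The windows were drawn around genes, whereas the whole span includes stretches without genes, so these densities describe the windows and were not tested.

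**Figure D1:**
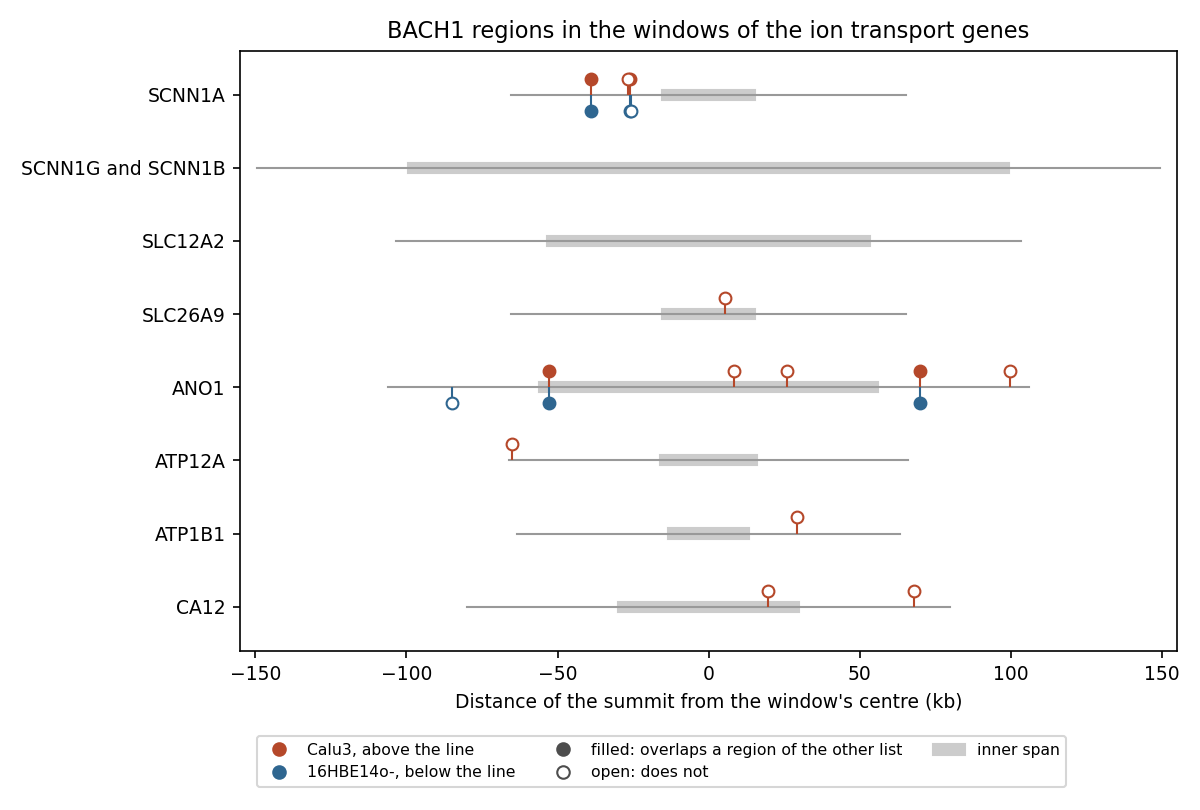
BACH1 regions in the 8 windows, by the distance of the summit from the window's centre in kb, with Calu3 above and 16HBE14o- below each line. Filled points overlap a region of the other list and grey bars mark the window without its outer 50 kb; the 4 sites in both lists lie in the SCNN1A and ANO1 windows.

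No hg19 gene annotation was used, so the gene ends were approximated from the windows. For 7 of the 8 windows, the length exceeded the span of the genes in the RefSeq GRCh38.p14 table by 99.5 to 101.1 kb. The part left after taking 50 kb off each side, called the inner span here, therefore matches the gene in length to about 1 kb. It is taken to approximate the gene, although its position against the gene's ends was not checked. The window of ANO1 is the exception, since RefSeq gives this gene 223.5 kb and its inner span is 112 kb long, so its edges do not mark the ends of the gene and sites beside it may lie within longer transcripts. Of the 13 Calu3 regions 5 had their summit in an inner span, and of the 6 regions of 16HBE14o- 1 did. The ANO1 window, whose inner span does not match the gene, supplied 3 of these 5 and the 1 of 16HBE14o-. The inner spans make up 42.8% of the windows.

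Promoters of 7 of the 9 genes were matched in the RefSeq table, and those of SCNN1A and SCNN1G were not. The promoters of the 3 genes with a region in their inner span are shown, 250 bases before to 50 bases after the gene's start on GRCh38.p14, 5′ to 3′ on the gene's strand. Capitals mark CpG dinucleotides. The ANO1 entry belongs to the RefSeq gene, whose start was not placed in the hg19 window.
ANO1, chr11:69985657-69985956, plus strand: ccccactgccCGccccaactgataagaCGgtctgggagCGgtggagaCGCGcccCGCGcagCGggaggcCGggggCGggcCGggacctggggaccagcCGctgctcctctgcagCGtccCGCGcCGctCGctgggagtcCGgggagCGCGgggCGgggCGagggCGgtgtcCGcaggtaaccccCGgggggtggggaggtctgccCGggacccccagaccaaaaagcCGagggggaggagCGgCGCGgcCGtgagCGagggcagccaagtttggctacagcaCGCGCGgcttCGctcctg
CA12, chr15:63381797-63382096, minus strand: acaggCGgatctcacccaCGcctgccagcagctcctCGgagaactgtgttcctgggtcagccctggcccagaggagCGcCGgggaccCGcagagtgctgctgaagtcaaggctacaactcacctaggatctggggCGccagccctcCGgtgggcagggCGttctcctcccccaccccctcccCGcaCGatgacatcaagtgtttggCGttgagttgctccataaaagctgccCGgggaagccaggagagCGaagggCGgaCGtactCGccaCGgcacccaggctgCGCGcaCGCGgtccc
SLC26A9, chr1:205943407-205943706, minus strand: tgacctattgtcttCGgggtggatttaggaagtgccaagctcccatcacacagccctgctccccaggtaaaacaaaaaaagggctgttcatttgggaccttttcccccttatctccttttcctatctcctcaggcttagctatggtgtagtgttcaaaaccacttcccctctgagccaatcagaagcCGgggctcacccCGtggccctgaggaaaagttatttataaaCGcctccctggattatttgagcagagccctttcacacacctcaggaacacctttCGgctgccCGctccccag
The ANO1 promoter held 36 CpG dinucleotides, that of CA12 22 and that of SLC26A9 6, beside a median of 14 over all 35116 promoters of the table. Letters of the kind BACH1 is known to bind were searched on both strands. None of the 7 promoters held TGAGTCA, the core that BACH1 sites share with AP-1 sites, which was found in 4.95% of all promoters of the table. None held TGACNNNGC, the core of the antioxidant response element, which was found in 13.3%. This says only that these letters are not in these windows of 300 bases, and the bound regions themselves were not searched.

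SCNN1A encodes the alpha subunit of the epithelial sodium channel, which the other subunits need for full channel activity. Its window, chr12:6406000-6537000, held 3 regions in each list, and of the 8 windows it had the strongest site in both lists. The strongest Calu3 region lay at chr12:6445355-6445838 with a fold enrichment of 15.2 and a −log10 q of 49.9. It ranked 403 in the Calu3 list, at the 96.1st percentile, meaning that 96.1% of the other regions had a lower signal. The 16HBE14o- region at chr12:6445408-6445647 lay wholly within it, with a peak signal of 55.0 on that list's own scale, rank 508 and percentile 85.1. Their summits were 40 bp apart.

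A further site in the SCNN1A window was present in both lists. The Calu3 region at chr12:6432484-6432747 had a fold enrichment of 9.89, a −log10 q of 18.8 and rank 1106 (percentile 89.2). The 16HBE14o- region at chr12:6432519-6432758 had a signal of 43.3 and rank 798 (percentile 76.5), with its summit 36 bp from that of Calu3. The summits of the 2 sites were 12965 bp apart in Calu3 and 12889 bp apart in 16HBE14o-.

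Around the stronger site each list also had a weak region with no overlap in the other. In Calu3 it was chr12:6444904-6445090, with a fold enrichment of 3.14, a −log10 q of 0.64 (q above 0.05) and rank 7826. In 16HBE14o- it was chr12:6445863-6446102, with a signal of 18.6 and rank 3294 of 3393. The weak Calu3 region lay on the low-coordinate side of the stronger site and the weak 16HBE14o- region on the high-coordinate side, where 24 bp separated it from the end of the strong Calu3 region. The Calu3 regions of this stretch were 484 and 187 bp wide and those of 16HBE14o- 240 bp, the width of 98.4% of the rows in that list. The weak regions thus cover different bases on opposite sides of the shared site, and the reason was not tested.

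All 6 regions of the SCNN1A window lay outside its inner span, on the low-coordinate side. The stronger site was 10.4 kb from the inner span in Calu3 and 10.5 kb in 16HBE14o-, and the other shared site was 23.4 kb away in both. In the RefSeq GRCh38.p14 table the nearest protein-coding genes on that side are TNFRSF1A, which encodes a receptor for tumour necrosis factor, and then PLEKHG6. These sites were therefore not assigned to SCNN1A. A stronger site lay just outside the window on the other side, 2.89 kb beyond the edge in Calu3 and 2.84 kb in 16HBE14o-. There the Calu3 region at chr12:6539337-6540141 had a fold enrichment of 34.4 and rank 20, and the 16HBE14o- region at chr12:6539721-6539960 a signal of 80.5 and rank 240. On the low side the nearest Calu3 region outside the window, 1.50 kb away, was weak (fold enrichment 2.26, rank 9974). Of all windows of this length, 3.56% held 3 or more Calu3 regions and 0.797% held 3 or more of 16HBE14o-. Those windows include stretches without genes, and the shares were not tested. The regions counted here include the weak one of each list. Its summit lay 594 bp from that of the strongest region in the window in Calu3 and 455 bp in 16HBE14o-.

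**Figure D2:**
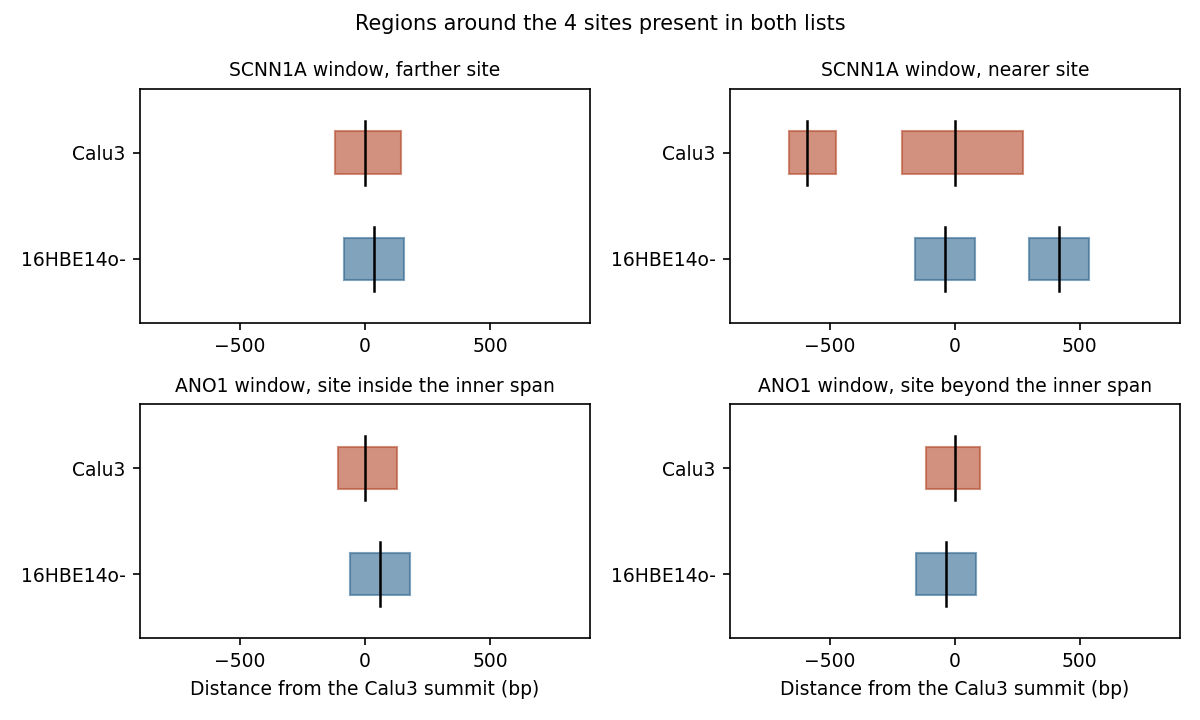
Extent of the regions around the 4 sites in both lists, in bp from the Calu3 summit, with boxes for regions and black lines for summits (Calu3 above, 16HBE14o- below). The paired summits lie 34 to 60 bp apart, and the nearer site of the SCNN1A window has a further region on either side, each from a different list.

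SCNN1B and SCNN1G encode the beta and gamma subunits of the sodium channel and lie side by side. Their shared window, chr16:23144000-23443000, was the longest at 299 kb and held no region of either list. Of all consecutive windows of this length, 49.9% held no Calu3 region and 79.1% none of 16HBE14o-. The nearest site was 107 kb beyond the high edge and was present in both lists. It lay at chr16:23549927-23550297 in Calu3, with a fold enrichment of 9.53 and rank 1182, and at chr16:23550038-23550277 in 16HBE14o-, with a signal of 35.7 and rank 1185. Of the 3 channel subunits, SCNN1A was thus the one with listed sites in its window, although those sites lay outside its inner span.

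SLC12A2 encodes the sodium-potassium-chloride cotransporter NKCC1, which loads chloride into the cell across the basolateral membrane. Its window, chr5:127369000-127576000, also held no region of either list. An empty window of this length was found in 59.4% of cases for Calu3 and in 84.1% for 16HBE14o-. The nearest Calu3 region, chr5:127323772-127324083, lay 45.0 kb beyond the low edge with a fold enrichment of 6.48 and rank 2401. The nearest 16HBE14o- region was 854 kb beyond the high edge, with a signal of 22.9 and rank 2916, and the 2 were not the same site. Because the depth of sequencing is unknown, a site missing from a list was not detected and is not shown to be absent.

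ANO1, also named TMEM16A, encodes the calcium-activated chloride channel of the apical membrane. Its window, chr11:69874000-70086000, held 5 Calu3 regions and 3 of 16HBE14o-, the largest number for Calu3 among the 8 windows. Windows of this length with 5 or more Calu3 regions made up 1.69% of the whole, and those with 3 or more of 16HBE14o- 1.81%. The whole includes stretches without genes, and these shares were not tested. The sites in the ANO1 window were weaker than the strongest ones in the SCNN1A window in both lists. Their percentiles were 6.92 to 65.9 in Calu3 and 5.51 to 51.7 in 16HBE14o- for ANO1.

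An ANO1 site near the low edge of the inner span was present in both lists. The Calu3 summit lay 3.07 kb inside that edge and that of 16HBE14o- 3.13 kb. Since the inner span does not match the RefSeq gene, the distance to a start of ANO1 was not determined. The Calu3 region, chr11:69926963-69927197, had a fold enrichment of 5.08, a −log10 q of 8.02 and rank 3647. The 16HBE14o- region, chr11:69927010-69927249, had a signal of 29.1 and rank 1840, and the summits were 60 bp apart. This is the one site of the 9 genes that lay in an inner span in both lists.

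The other ANO1 site in both lists lay 14.1 kb beyond the high edge of the inner span. In Calu3 it was chr11:70050015-70050228, with a fold enrichment of 5.21 and rank 3496, and in 16HBE14o- chr11:70049976-70050215, with a signal of 20.3 and rank 3206 (percentile 5.51), near the foot of that list. The remaining Calu3 regions had no counterpart within 29 kb. Those at chr11:69988351-69988596 and chr11:70005760-70006007, inside the inner span, had fold enrichments of 3.67 and 2.53, and the second had a −log10 q of 0. The one at chr11:70079628-70079822, 43.8 kb beyond the inner span, had a fold enrichment of 4.08. The remaining 16HBE14o- region, chr11:69894886-69895125, had a signal of 30.6, lay 29.0 kb below the low edge of the inner span and was 32.1 kb from the nearest Calu3 summit. At ANO1 the lists thus met at 2 of 5 Calu3 regions and 2 of 3 regions of 16HBE14o-. Genome-wide, 15.3% of regions in Calu3 and 46.5% in 16HBE14o- had such a counterpart. The ANO1 counts rest on only 5 and 3 regions and were not tested against these shares.

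SLC26A9 encodes an apical anion transporter that conducts chloride and is known as a modifier gene in cystic fibrosis. Its window, chr1:205832000-205963000, held 1 weak Calu3 region, chr1:205902772-205902963, with a fold enrichment of 2.84, a −log10 q of 1.92 and rank 8728 (percentile 14.7). SLC26A9 is read towards lower coordinates, and the summit lay within the inner span, 10.1 kb from its high edge, the side on which the gene starts. No 16HBE14o- summit lay within 635 kb of it.

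ATP12A encodes the catalytic subunit of the non-gastric proton-potassium ATPase, which acidifies the airway surface liquid. Its window, chr13:25204000-25336000, held 1 Calu3 region at its very edge, chr13:25205038-25205219, 48.9 kb before the start of the inner span. It had a fold enrichment of 3.43, a −log10 q of 1.40 and rank 6847 (percentile 32.7). The nearest 16HBE14o- summit was 2790 kb away.

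ATP1B1 encodes the beta subunit of the sodium-potassium ATPase, whose pumping drives the other transport steps. Its window, chr1:169025000-169152000, held 1 strong Calu3 region, chr1:169117725-169118105, with a fold enrichment of 11.6, a −log10 q of 33.9 and rank 764 (percentile 92.6). It lay 15.9 kb beyond the high edge of the inner span, the side on which ATP1B1 ends. On that side RefSeq GRCh38.p14 lists NME7 as the next protein-coding gene. The nearest 16HBE14o- summit was 439 kb away.

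CA12 encodes a membrane-bound carbonic anhydrase that interconverts carbon dioxide and bicarbonate outside the cell. Its window, chr15:63565000-63725000, held 2 Calu3 regions and none of 16HBE14o-, whose nearest summit was 324 kb from the first. Of all consecutive windows of this length, 12.4% held 2 or more Calu3 regions and 86.9% held none of 16HBE14o-. The stronger region, chr15:63664544-63664879, had a fold enrichment of 10.8, a −log10 q of 31.7 and rank 900 (percentile 91.2). CA12 is read towards lower coordinates, and this summit lay inside the inner span, 10.3 kb from its high edge, the side on which the gene starts. It was the strongest region of either list within an inner span, by percentile. The other region, chr15:63712755-63713004, lay 37.9 kb beyond the high edge of the inner span, with a fold enrichment of 5.62 and rank 3055 (percentile 70.2).

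**Figure D3:**
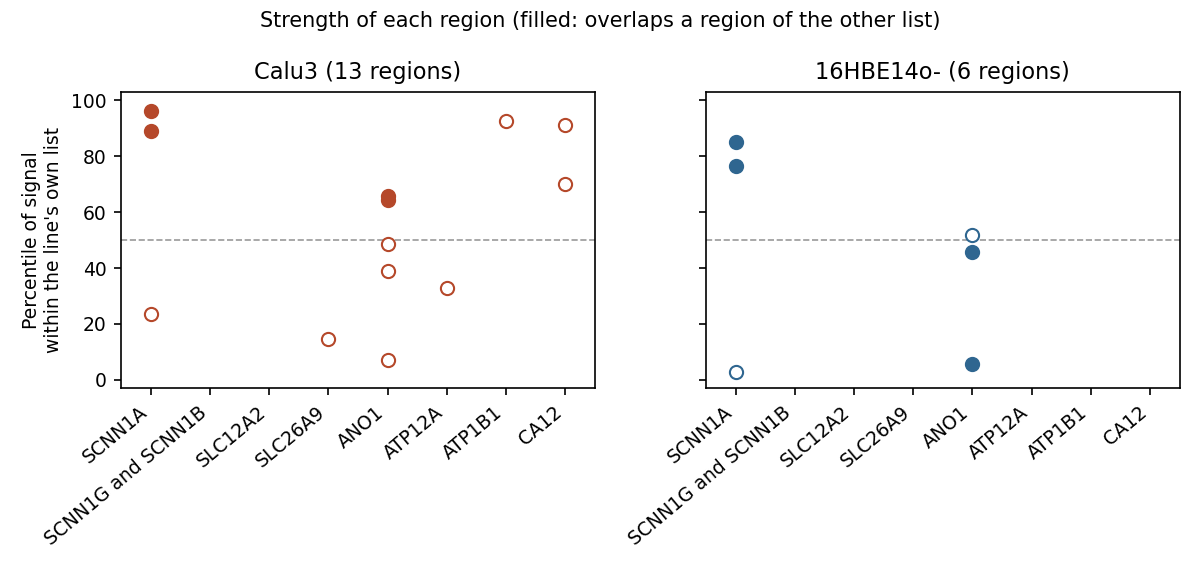
Percentile of signal within its own list for each region, by window, with 13 Calu3 regions on the left and 6 regions of 16HBE14o- on the right. In Calu3 the highest points are those of SCNN1A (96.1), ATP1B1 (92.6) and CA12 (91.2), and the last 2 are open because no 16HBE14o- region overlaps them.

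In both lists the strength of the sites spread widely. The Calu3 percentiles ran from 6.92 to 96.1 with a median of 64.4, and those of 16HBE14o- from 2.92 to 85.1 with a median of 48.7, beside about 50 for each whole list by definition. In Calu3, 3 of the 13 regions belonged to the strongest 10% of the list, and in 16HBE14o- none of the 6 did. A deposited q under 0.05 was reached by 11 of the 13 Calu3 regions, against 73.3% of the whole list. Fold enrichment and signal are on different scales, so no value was compared between the lines.

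Of the 13 Calu3 regions 4 met a region of 16HBE14o- (30.8%, 95% exact binomial interval 9.09 to 61.4), against 15.3% of the whole Calu3 list. Of the 6 regions of 16HBE14o- 4 met a Calu3 region (66.7%, 95% exact binomial interval 22.3 to 95.7), against 46.5% of its whole list. Both intervals include the share of the whole list, but they cover counting error only and treat the regions as independent. All 4 pairs and all 6 regions of 16HBE14o- lie in the SCNN1A and ANO1 windows, so the intervals may be too narrow. The shares were not tested. The 4 pairs had summits 34 to 60 bp apart, against a median of 18 bp over all 1579 pairs of the lists. At SCNN1A the paired sites were well up in both lists, at percentiles 89.2 and 96.1 in Calu3 and 76.5 and 85.1 in 16HBE14o-. At ANO1 they were at 64.4 and 65.9 in Calu3 and 45.8 and 5.51 in 16HBE14o-. Percentiles depend on the length of the list and do not compare between the lines. The same ANO1 pairs ranked 3647 and 3496 of 10246 in Calu3, and 1840 and 3206 of 3393 in 16HBE14o-. The strong Calu3 regions at ATP1B1 and CA12 had no counterpart, and how often equally strong Calu3 regions lack one was not counted. Among the Calu3 regions, the 9 without a counterpart had a median percentile of 39.1 and the 4 with one 77.5, beside 45.0 and 82.3 over the whole list.

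**Figure D4:**
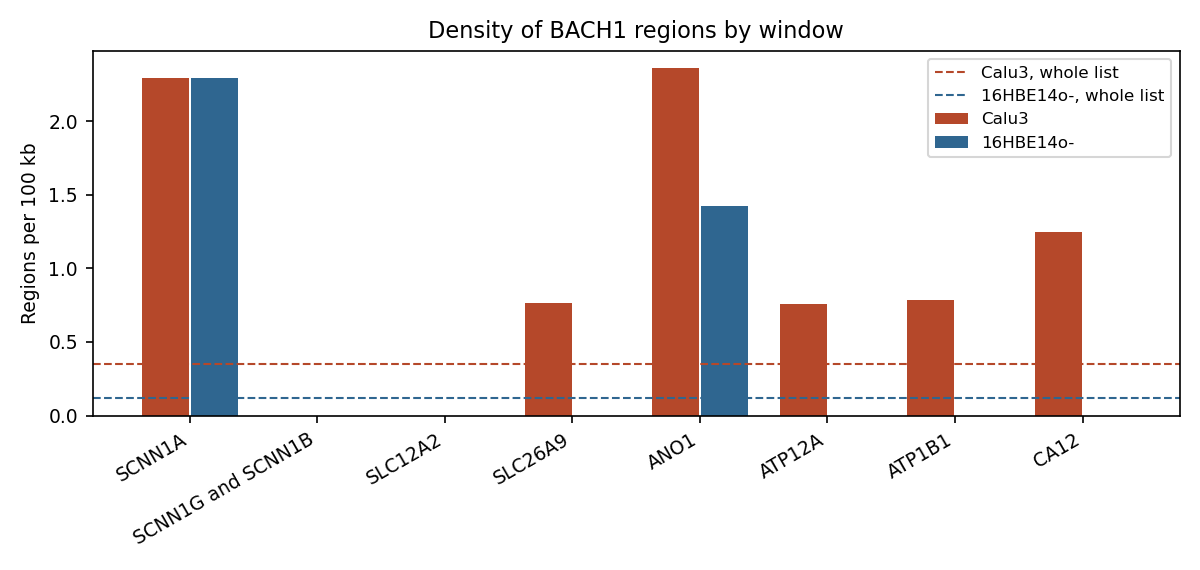
Regions per 100 kb in each window, with red bars for Calu3 and blue bars for 16HBE14o-, and dashed lines for the mean of each whole list. SCNN1A (2.29 in both lists) and ANO1 (2.36 in Calu3 and 1.42 in 16HBE14o-) stand highest, and the windows of SCNN1G and SCNN1B and of SLC12A2 are empty.

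By density the Calu3 windows followed the order ANO1 (2.36 regions per 100 kb), SCNN1A (2.29), CA12 (1.25), ATP1B1 (0.787), SLC26A9 (0.763) and ATP12A (0.758). The last 3 windows each rest on 1 region, and in windows of their lengths 29.1 to 29.7% held at least 1 Calu3 region. For 16HBE14o-, 88.9 to 89.2% of windows of these lengths held no region. The place of ANO1 rested on weaker regions: in the upper 50% of each list ANO1, SCNN1A and CA12 had 2 Calu3 regions each, and with Calu3 limited to as many regions as 16HBE14o- had, ANO1 had 0 and SCNN1A and CA12 had 2 each. In 16HBE14o- the order was SCNN1A (2.29) and ANO1 (1.42), and in its upper 50% SCNN1A had 2 regions and ANO1 1. With 1 pooled list per line there is no replicate spread against which neighbours in either order could be told apart.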

How the data were processed

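BACH1 ChIP-seq peaks of 2 lines were analysed, each from 2 replicates combined by the authors through the irreproducible discovery rate (IDR), per the labels. The build is hg19, per the submitters' processing notes. The aligner, peak caller, filters and control, if any, were not given in the sources used here. The Calu3 values used, as deposited, are a fold enrichment (ratio) and a −log10 q per peak; these names rest on the file format and on the values. Those of 16HBE14o-, as deposited by the authors, are a peak signal and a score on unstated scales, and the score entered no result. The values are the authors' and rank peaks within a list only. Read depth is unknown.

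Overlapping rows were merged, which turned 3415 rows of 16HBE14o- into 3393 regions. Overlaps of at least 1 bp counted as shared. Shares carry exact (Clopper-Pearson) intervals. Consecutive windows were laid over the span that the lists cover on chromosomes 1 to 22 and X. Coordinates are 1-based. All 9 genes are named, and every region in their windows is given. The genes, windows and motifs were chosen with earlier results of these data known. Overlap, merging and window assignment were tested on simulated data. Python 3.11.15, numpy 2.4.6, pandas 2.3.3, scipy 1.17.1 and matplotlib 3.10.9 were used. Further ion transport genes were not analysed here, since their hg19 positions were not used.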

Additional observations from a re-analysis of the deposited data

How the results depend on the processing

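Not merging rows, assigning regions by any base and keeping Calu3 regions with a q under 0.05 left all 4 counts within 1.5 times of those reported (13 and 4 shared in Calu3, 6 and 4 shared in 16HBE14o-). Summits within 100 bp kept 4 shared regions in each list, and a reciprocal overlap of 50% kept 3. The pair lost was the stronger SCNN1A site, where the 240 bp region of 16HBE14o- lay wholly within a Calu3 region of 484 bp. In the upper 50% of each list Calu3 had 7 regions in the windows, 2 of them shared, and 16HBE14o- had 3, 2 of them shared. With Calu3 limited to as many regions as 16HBE14o-, 5 Calu3 regions were left, 2 of them shared, and 2 of the 6 regions of 16HBE14o- were shared. By construction both settings keep fewer regions, and with equal list sizes Calu3 had no region at ANO1, SLC26A9 or ATP12A. In windows narrowed by 50 kb on either side, 5 Calu3 regions remained, 1 of them shared, and 1 region of 16HBE14o-, which was shared (1 of 1). Neither list then had a region at SCNN1A. Without the SCNN1A and ANO1 windows, a setting chosen after seeing the data, 5 Calu3 regions were left with 0 shared, and 16HBE14o- had 0 regions with 0 shared. No paired analysis was possible because the replicates of a line share 1 deposited list, and no single replicate could be left out.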
